A study of Mus musculus with 34 samples.

Results

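Fbp1, Wfdc2 and Lrrc56 were followed as 3 genes that had lower counts in hematopoietic stem cells (HSCs) of young Ythdf2 CKO mice than of young Ythdf2 CTL mice. They are 3 of the 13108 gene rows of the deposited count table, and all 3 were found there by gene symbol. The members were chosen by their measured counts in the young mice, so their young values are given as a description without a test, and the tests were run in aged mice, which the choice did not use. Each library held poly(A) RNA of 100 HSCs sorted as LSK CD48- CD150+ cells from bone marrow of C57BL/6 mice and amplified by SMART-Seq2. Ythdf2 CTL mice (labelled WT) carried Ythdf2 fl/fl, a floxed allele that also places GFP on the YTHDF2 protein, and Ythdf2 CKO mice (labelled KO) carried Ythdf2 fl/fl and Vav-iCre, which is active across hematopoietic lineages, so that the controls shared the modified allele but not the Cre. Young mice (8 to 12 wk, 4 Ythdf2 CTL and 4 Ythdf2 CKO) and aged mice (1 yr, 4 Ythdf2 CTL and 5 Ythdf2 CKO) each gave libraries A and B. These were added per mouse, with aged Ythdf2 CTL 99 B left out for its low count, which left 33 libraries of 17 mice with 1859784 to 7784627 counts per library.

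YTHDF2 is a cytoplasmic reader of N6-methyladenosine (m6A) and promotes the decay of the mRNAs that carry this mark, so that transcripts which it binds tend to accumulate when it is lost. Fbp1 encodes fructose bisphosphatase, the enzyme of liver and kidney that removes a phosphate from fructose bisphosphate and thereby runs gluconeogenesis against glycolysis. Wfdc2 encodes a small secreted protein with WAP domains, related to protease inhibitors and best known from airway and reproductive tract epithelium. Lrrc56 encodes a leucine-rich repeat protein that takes part in the delivery of dynein arms to motile cilia.

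The 3 genes lie on different chromosomes of GRCm38. In the GENCODE M21 annotation, Fbp1 (ENSMUSG00000069805.10) spans chr13:62864753-62888282 on the minus strand with 1702 exonic bases. Wfdc2 (ENSMUSG00000017723.11) spans chr2:164562413-164568510 on the plus strand with 1140 exonic bases, and Lrrc56 (ENSMUSG00000038637.15) spans chr7:141194157-141210055 on the plus strand with 6068 exonic bases. All 3 are protein-coding, and the longest coding transcripts encode 338, 174 and 552 residues, respectively. Per kilobase of exonic length, the level in young Ythdf2 CTL HSCs was 37.4 ± 11.8 CPM (SD, n = 4) for Fbp1, 22.1 ± 8.52 CPM for Wfdc2 and 0.551 ± 0.117 CPM for Lrrc56, beside 23.6 ± 3.27 CPM for Ythdf2 itself. CPM is the count of a gene per 1000000 counts of the mouse, after TMM scaling over the 17 mice. Fbp1 and Wfdc2 were thus at levels per length like that of Ythdf2, whereas Lrrc56 was far lower, with 15 to 23 counts per mouse.

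The m6A mark is placed on adenosine within a short consensus of which GGACT is a common form, so the sense strand of the longest coding transcript of each gene was searched for these letters. The stretches below are shown because they are the sequences that an m6A reader could meet in these mRNAs. The match stands in capitals within 10 bases on either side, written as DNA, 5′ to 3′. The 4 matches of Wfdc2 lie in exon 2 (chr2:164563357-164563361 and chr2:164563387-164563391) and exon 3 (chr2:164564108-164564112), all coding, and in the 3′ UTR in exon 5 (chr2:164568381-164568385). The coding matches of Fbp1 (exon 5, chr13:62869029-62869033) and Lrrc56 (exon 8, chr7:141206451-141206455) follow.
Wfdc2 site 1: aaccaattacGGACTgtgtgttgga
Wfdc2 site 2: ctttggacaaGGACTgtgcggacaa
Wfdc2 site 3: tcagagactgGGACTactactcaat
Wfdc2 site 4: tgtttctgccGGACTgtgcatctgg
Fbp1 site 2: gttatgccaaGGACTttgaccctgc
Lrrc56 site 2: cgctgagccaGGACTggctgatggt

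Wfdc2 had 4 matches in a transcript of 849 bases. Among the 507 genes of the table whose longest coding transcript was within 20% of that length, 3.75% had as many, the median was 1 match, and 30.2% had none. Fbp1 had 2 matches in 1479 bases, and 57.1% of 1491 transcripts of like length had at least as many. Lrrc56 had 3 in 2502 bases, and 53.4% of 2824 transcripts of like length had at least as many. The remaining match of Fbp1 and one of Lrrc56 fall in the 5′ UTR, and another of Lrrc56 falls in the 3′ UTR. A match of letters is not a methylated site, and methylation was not measured in these libraries.

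The targeted gene was examined first, since it bears on the labels. In young mice Ythdf2 was at 93.3 to 123 CPM in the 4 Ythdf2 CTL mice and at 50.3 to 60.2 CPM in the 4 Ythdf2 CKO mice, without overlap. Reads were summed over the whole gene, and exon 2 alone was floxed, so the remaining counts do not measure functional mRNA. In aged mice, Ythdf2 was at 179, 164, 142 and 70.5 CPM in Ythdf2 CTL 65, 99, 114 and 124, and at 75.7, 87.7, 73.7, 188 and 72.4 CPM in Ythdf2 CKO 78, 81, 94, 121 and 122. The aged library pairs labelled Ythdf2 CKO 121 and Ythdf2 CTL 124 therefore went against their labels in this gene. All mice were kept as labelled, and the aged results of the 3 members are given with and without them.

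Fbp1 was the most abundant of the 3. In young Ythdf2 CTL mice 1 to 4, Fbp1 had 286, 510, 358 and 277 counts, which are 62.9, 92.1, 52.0 and 47.7 CPM. In young Ythdf2 CKO mice 1 to 4, it had 72, 126, 112 and 93 counts, or 14.2, 23.0, 21.4 and 14.0 CPM. The groups did not overlap, and the mean was 63.7 ± 20.03 CPM (SD, n = 4) against 18.2 ± 4.74 CPM (n = 4), a ratio of 3.50. As the choice rested on this contrast, nothing is read from the fact that young groups without overlap and with a lower Ythdf2 CKO level made up 2.09% of 11526 genes tested, nor from the 0.0434% (5 genes) that passed an adjusted p of 0.05 in this direction and the 0.13% (15 genes) that passed in the other (edgeR quasi-likelihood test).

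In aged mice, Fbp1 had 399, 244, 294 and 340 counts in Ythdf2 CTL 65, 99, 114 and 124, or 41.8, 100.6, 54.7 and 47.6 CPM. In Ythdf2 CKO 78, 81, 94 and 122 it had 89, 92, 40 and 34 counts, or 9.67, 8.96, 7.78 and 4.87 CPM. In Ythdf2 CKO 121 it had 749 counts, or 98.5 CPM. Thus 4 of 5 aged Ythdf2 CKO mice lay below every aged Ythdf2 CTL mouse, and the remaining one lay near the highest. The mean was 61.2 ± 26.8 CPM (SD, n = 4) against 26.0 ± 40.6 CPM (n = 5). The log2 fold change was -1.23 (SE 0.75), and it did not pass the test (edgeR quasi-likelihood test, adjusted p = 0.611 over 11961 genes). A two-sided exact permutation test of the group means over the 9 mice gave an unadjusted p = 0.254. In this fit, 0% of genes (0 of 11961) passed an adjusted p of 0.05 as lower in Ythdf2 CKO, and 0% passed as higher, while 676 and 532 had an unadjusted p below 0.05. Over mice, DESeq2 called 50 lower and 54 higher, and a likelihood ratio test in edgeR called 34 and 42.

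Without Ythdf2 CKO 121, aged Fbp1 was at 7.82 ± 2.11 CPM (SD, n = 4) in Ythdf2 CKO mice, a ratio of 7.82 between the group means, and the groups no longer overlapped. The log2 fold change was then -2.95 (edgeR quasi-likelihood test, adjusted p = 0.00835), and with Ythdf2 CTL 124 left out too it was -3.06 (adjusted p = 0.00231). Without 121, 0.0338% of 11821 genes (4 genes) were called as lower, and 3.21% had groups without overlap in this direction. Without both mice these shares were 0.125% (15 genes) and 5.41% of 12005 genes. The exact permutation test gave p = 0.0286 with 4 mice per group and p = 0.0571 with 3 against 4, each the smallest that these numbers of mice allow. The call thus depended on a single mouse, the one in which Ythdf2 was also at the level of Ythdf2 CTL mice. Mouse 124, low in Ythdf2 but labelled Ythdf2 CTL, had 47.6 CPM of Fbp1, between the values of Ythdf2 CTL 65 and 114. Whether these mice carried the labelled genotype was not tested. DESeq2 over the 9 mice gave a log2 fold change of -1.26 without an adjusted p.

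**Figure D1:**
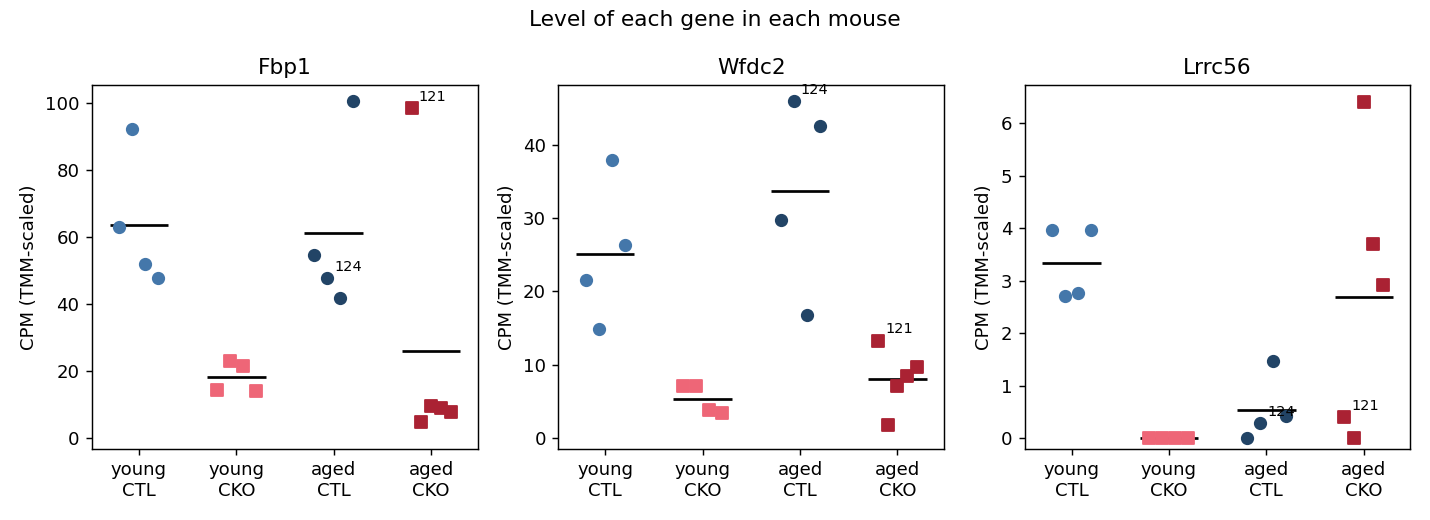
CPM (TMM-scaled) of Fbp1, Wfdc2 and Lrrc56 in each mouse by age and genotype, with a horizontal line at the group mean and with mice 121 and 124 marked. Fbp1 and Wfdc2 were lower in each young Ythdf2 CKO mouse than in each young Ythdf2 CTL mouse, 4 of 5 aged Ythdf2 CKO mice were below 10 CPM for Fbp1, and Lrrc56 was at 0 in young Ythdf2 CKO mice but at up to 6.41 CPM in aged ones.

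Wfdc2 was the member whose aged groups did not overlap. In young Ythdf2 CTL mice 1 to 4 it had 98, 82, 261 and 153 counts (21.6, 14.8, 37.9 and 26.3 CPM). In young Ythdf2 CKO mice 1 to 4 it had 36, 39, 20 and 23 counts (7.12, 7.13, 3.82 and 3.45 CPM). The groups did not overlap, and the ratio of the means was 4.67, from 25.1 ± 9.72 CPM to 5.38 ± 2.02 CPM (SD, n = 4 each).

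In aged Ythdf2 CTL mice 65, 99, 114 and 124, Wfdc2 had 160, 103, 160 and 328 counts, or 16.8, 42.5, 29.8 and 45.9 CPM. In aged Ythdf2 CKO mice 78, 81, 94, 121 and 122, it had 65, 87, 50, 101 and 12 counts, or 7.06, 8.47, 9.73, 13.3 and 1.72 CPM. All 5 Ythdf2 CKO mice lay below all 4 Ythdf2 CTL mice, mouse 121 being the highest of its group. Groups without overlap and with a lower Ythdf2 CKO level were found for 1.7% of the 11961 genes tested in aged mice (203 genes), and with a higher level for 1.78% (213 genes). The mean went from 33.8 ± 13.3 CPM (SD, n = 4) to 8.05 ± 4.23 CPM (n = 5), a ratio of 4.19.

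The aged log2 fold change of Wfdc2 was -2.05 (SE 0.50) with an unadjusted p = 0.00115, the 38th smallest of the 11961 genes, and did not pass after adjustment (edgeR quasi-likelihood test, adjusted p = 0.297). The two-sided exact permutation test over the 9 mice gave p = 0.0159 before any adjustment, the smallest that 4 against 5 mice allow. With DESeq2 over mice the adjusted p was 0.0141, with edgeR's likelihood ratio test over mice 0.021, and with that test over libraries, which counts A and B of a mouse as separate replicates although they share an animal, 0.0243. With the library letter as a block, which also counts A and B as separate replicates, the adjusted p was 0.092 (edgeR quasi-likelihood test). The call thus depended on the test. Leaving out 1 mouse at a time gave log2 fold changes from -2.31 to -1.80, and without 121 and 124 the value was -2.13 (adjusted p = 0.129). Its sign was the same in each of these fits.

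**Figure D2:**
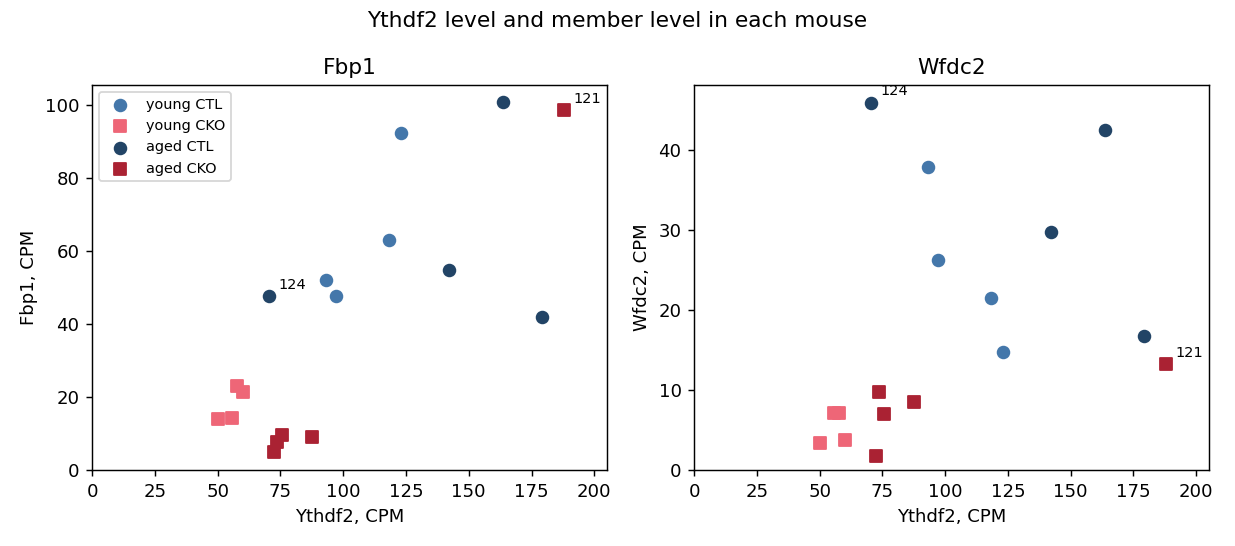
Ythdf2 level (x axis, CPM) against Fbp1 (left) and Wfdc2 (right, y axis, CPM) in each of the 17 mice, colored by group, with mice 121 and 124 marked. Mouse 121 stood at 188 CPM of Ythdf2 and 98.5 CPM of Fbp1, apart from the other Ythdf2 CKO mice, but at 13.3 CPM of Wfdc2 it lay below all Ythdf2 CTL mice.

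The plot of Ythdf2 against the members shows how the mice that went against their labels stood in each gene. Mouse 121 had 98.5 CPM of Fbp1, near the upper end of the aged Ythdf2 CTL mice (41.8 to 100.6 CPM). That end was set by Ythdf2 CTL 99, which had 1 library in use. The Wfdc2 level of mouse 121 was just below that of the lowest aged Ythdf2 CTL mouse (16.8 CPM). Mouse 124 had the highest Wfdc2 level of all 17 mice, 45.9 CPM, while its Ythdf2 level of 70.5 CPM was below that of every aged Ythdf2 CKO mouse. Summed over libraries, both mice were on the side of their label in Wfdc2, but for mouse 124 this rested on library B (82.4 CPM), since library A was at 2.96 CPM, within the range of the aged Ythdf2 CKO libraries (0.546 to 21.6 CPM). The upper end of that range is library B of mouse 121, which lay above both libraries of Ythdf2 CTL 65 (17.1 and 17.0 CPM) and library A of Ythdf2 CTL 114 (19.9 CPM), whereas library A of mouse 121 was at 8.30 CPM. For neither mouse did the libraries place it on 1 side.

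Lrrc56 was the least abundant member. In young Ythdf2 CTL mice 1 to 4 it had 18, 15, 19 and 23 counts (3.96, 2.71, 2.76 and 3.96 CPM), and it had 0 counts in each of the 4 young Ythdf2 CKO mice and so in 0 of their 8 libraries. For a count of 0 a floor of 3 counts per mouse was set, or 0.451 to 0.593 CPM in these mice. The upper limits of 95% Poisson intervals on their 0 counts were 0.554 to 0.729 CPM. Set against the floor, the mean of the young Ythdf2 CTL mice was 6.18-fold higher. The log2 ratio on this floor was -2.62, but -1.58 with library A alone and -1.51 with library B alone.

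In aged mice, the order of the groups was the opposite. Lrrc56 had 14, 1, 0 and 2 counts in Ythdf2 CTL 65, 99, 114 and 124, or 1.47, 0.412, 0 and 0.28 CPM. It had 59, 38, 15, 3 and 0 counts in Ythdf2 CKO 78, 81, 94, 121 and 122, or 6.41, 3.70, 2.92, 0.395 and 0 CPM. Of the 5 Ythdf2 CKO mice, 3 lay above every Ythdf2 CTL mouse, and the other 2 were at 3 counts or fewer. The mean was 0.54 ± 0.642 CPM (SD, n = 4) against 2.69 ± 2.62 CPM (n = 5). The log2 fold change was 2.21 (SE 1.32), and it did not pass the test (edgeR quasi-likelihood test, adjusted p = 0.603). The exact permutation test over the 9 mice gave a two-sided p = 0.19. Without 121 and 124 the log2 fold change was 2.23 (edgeR, adjusted p = 0.583, and exact permutation p = 0.229). When aged Ythdf2 CTL 99 B, which held 9 counts of Lrrc56, was kept, the value was 1.09 (edgeR, adjusted p = 0.81). The gene entered the aged fit through the Ythdf2 CKO mice in which it was high, and it was too low to be tested once 78, 81 or 94 was left out.

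In aged mice, Wfdc2 thus had a lower level in all 5 and Fbp1 in 4 of 5 Ythdf2 CKO mice than in every Ythdf2 CTL mouse, and Lrrc56 had a higher mean. None of the 3 passed the aged test (edgeR quasi-likelihood test, adjusted p = 0.297, 0.611 and 0.603). Ordered by group mean, Fbp1 went from young Ythdf2 CTL (63.7 CPM) and aged Ythdf2 CTL (61.2 CPM) to aged Ythdf2 CKO (26.0 CPM) and young Ythdf2 CKO (18.2 CPM). By the median the last places were exchanged, with 8.96 CPM in aged and 17.8 CPM in young Ythdf2 CKO mice. Wfdc2 went from aged Ythdf2 CTL (33.8 CPM) and young Ythdf2 CTL (25.1 CPM) to aged Ythdf2 CKO (8.05 CPM) and young Ythdf2 CKO (5.38 CPM), and at each genotype the 2 ages overlapped. Lrrc56 went from young Ythdf2 CTL (3.35 CPM) and aged Ythdf2 CKO (2.69 CPM) to aged Ythdf2 CTL (0.54 CPM) and young Ythdf2 CKO (0 CPM). The sample codes in the labels differ between young and aged mice, and what they stand for is not stated. Age and whatever goes with these codes cannot be told apart, and levels were not tested across ages.

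Libraries A and B of a mouse, each from 100 cells, show how far the levels hold within an animal. Over the 16 mice with both libraries, the higher of the CPM values of Ythdf2 (here relative to the library total) was 1.28 times the lower in the median and at most 1.81 times. For Fbp1 the median ratio was 1.69, with 4 of 16 mice above 2-fold. The largest was 12.3 in young Ythdf2 CKO 4, with 88 counts in A and 5 in B. For Wfdc2 the median ratio was 2.46, with 10 of 16 mice above 2-fold. The largest was 27.8 in aged Ythdf2 CTL 124, which had 10 counts in A and 318 in B, so that the highest Wfdc2 level of any mouse came mostly from a single library.

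The spread between libraries was not the same in all groups. Wfdc2 ratios were 1.04 to 1.38 in the 4 young Ythdf2 CTL mice and 1.65 to 8.08 in the 4 young Ythdf2 CKO mice, where counts per library were 4 to 32. Fbp1 in mouse 121 was at 104.5 CPM in A (466 counts) and 95.4 CPM in B (283 counts). Both libraries of that mouse were therefore high.

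Lrrc56 was seen in single libraries. Of 16 mice, 6 had it in 1 library only, 6 in neither and 4 in both. In young Ythdf2 CTL mice 1 to 4, A and B had 15 and 3, 15 and 0, 1 and 18, and 0 and 23 counts. In aged Ythdf2 CKO 78, both libraries held the transcript (19 and 40 counts), whereas 81 had 38 and 0 and 94 had 15 and 0. In all, Lrrc56 was detected in 6 of 8 young Ythdf2 CTL libraries, 0 of 8 young Ythdf2 CKO libraries, 3 of 7 aged Ythdf2 CTL libraries and 6 of 10 aged Ythdf2 CKO libraries. The libraries have no molecular identifiers, so limits and intervals from counts cover counting error only.

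**Figure D3:**
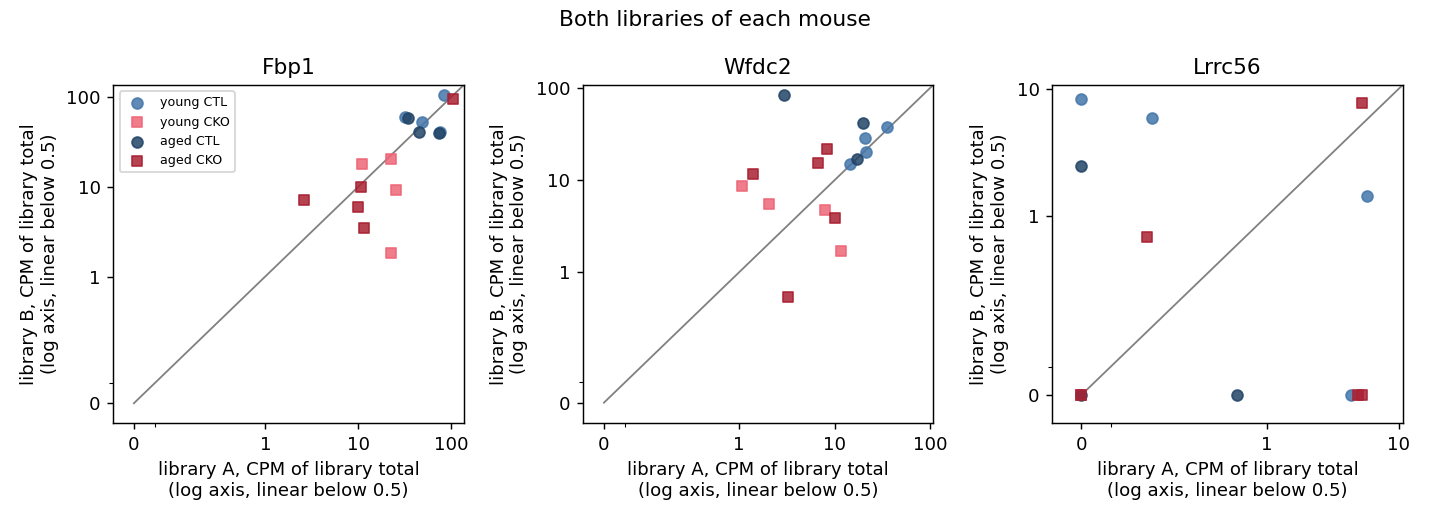
CPM of library A (x axis) against library B (y axis) for each of the 16 mice with both libraries, on log axes that are linear below 0.5 CPM, with the line of equality. Fbp1 points lie near the line except in 4 Ythdf2 CKO mice, Wfdc2 points scatter widely below 10 CPM and in 1 aged Ythdf2 CTL mouse, and Lrrc56 points lie on the axes in 6 mice and at 0 for both libraries in 6 mice, whose points overlie each other.

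Sex was not given in the labels, and Y-linked transcripts (Ddx3y, Eif2s3y, Kdm5d, Uty), taken as present above a sum of 3 counts, were found in 3 of 4 young Ythdf2 CTL, 1 of 4 young Ythdf2 CKO, 1 of 4 aged Ythdf2 CTL and 1 of 5 aged Ythdf2 CKO mice. In young mice with Y-linked transcripts, Fbp1 was at 52.0 to 92.1 CPM in 3 Ythdf2 CTL mice and at 14.2 CPM in 1 Ythdf2 CKO mouse. In young mice without them, it was at 47.7 CPM in 1 Ythdf2 CTL mouse and at 14.0 to 23.0 CPM in 3 Ythdf2 CKO mice. Wfdc2 was at 14.8 to 37.9 CPM against 7.12 CPM with Y-linked transcripts and at 26.3 CPM against 3.45 to 7.13 CPM without. Each of these sets has 1 mouse in one of its groups, and the young values chose the members, so they are a description, and the part of sex in them was not tested. In the 7 aged mice at or below 3 such counts (1 of them had a single count), a subset chosen after seeing the data, the log2 fold changes were -0.66 for Fbp1, -1.86 for Wfdc2 and 1.52 for Lrrc56 (edgeR quasi-likelihood test, adjusted p = 0.846, 0.432 and 0.801).

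**Figure D4:**
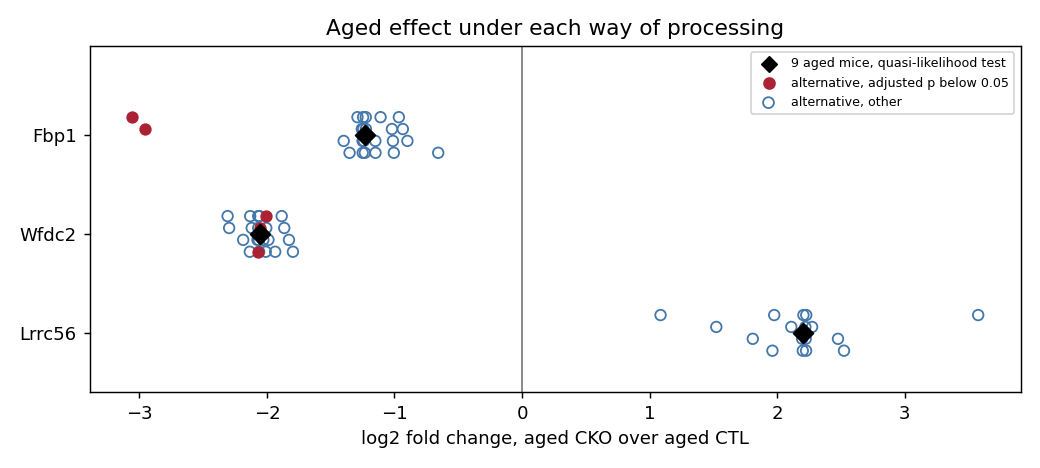
Log2 fold change of aged Ythdf2 CKO over aged Ythdf2 CTL HSCs (x axis) for each gene, with a diamond for the quasi-likelihood test over 9 mice and circles for the alternatives, filled where the adjusted p was below 0.05. All 24 values of Fbp1 and all 24 of Wfdc2 were below 0, with 2 and 3 filled, respectively. The 17 of Lrrc56 in which it could be tested were above 0 with none filled. Lrrc56 passed the filter through the Ythdf2 CKO mice in which it was high, so its sign says nothing about stability.

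The enzymes around the Fbp1 step were measured as a list of 26 genes, of which 22 had rows in the table. It holds enzymes of gluconeogenesis and of the steps that glycolysis shares with it, and also the phosphofructokinases, which run the opposite reaction, and Tigar and the Pfkfb enzymes, which set the level of the regulator fructose 2,6-bisphosphate. None passed the test in either direction at either age (21 genes tested in young and 22 in aged mice). The median log2 fold change was -0.0265 in young mice (9 above and 12 below 0) and 0.22 in aged mice (15 above and 7 below 0), beside a median of -0.000928 and -0.00328 over all genes tested. The most abundant members were Mdh1, the cytosolic malate dehydrogenase, Aldoa, the aldolase that makes and splits fructose bisphosphate, and Mdh2, the mitochondrial malate dehydrogenase. Aldoa was at 755 CPM in young Ythdf2 CTL and 811 CPM in young Ythdf2 CKO mice, and at 831 and 888 CPM in aged mice (adjusted p = 0.943 and 0.889, edgeR quasi-likelihood test). Mdh1 was at 948 and 922 CPM in young mice (adjusted p = 0.983), and Mdh2 at 697 and 673 CPM (adjusted p = 0.978). Over all genes tested, 0.0434% were called lower and 0.13% higher in young mice and 0% in aged mice, so that a count of 0 is no result about these genes.

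Of the 24 listed relatives of Wfdc2 in the WAP family, 4 had rows, and Wfdc17 and Slpi were high enough to test. Neither was called at either age. Slpi, a secreted inhibitor of neutrophil elastase, had 10, 0, 21 and 0 counts in young Ythdf2 CTL mice 1 to 4 and 19, 35, 185 and 51 counts in young Ythdf2 CKO mice (2.20, 0, 3.05 and 0 CPM against 3.76, 6.40, 35.4 and 7.66 CPM). In aged mice it was at 3.67, 3.30, 3.35 and 0 CPM in Ythdf2 CTL 65, 99, 114 and 124, and at 30.3, 39.8, 29.6, 3.42 and 45.2 CPM in Ythdf2 CKO 78, 81, 94, 121 and 122. Its log2 fold change was 3.31 in young mice (adjusted p = 0.372) and 3.55 in aged mice (adjusted p = 0.297, edgeR quasi-likelihood test). The values of Slpi in Ythdf2 CKO mice were above all Ythdf2 CTL values in young mice, as for 2.68% of the genes tested there in this direction. In aged mice this held other than for mouse 121. Wfdc17 ranged from 2.10 to 160.4 CPM with 1 mouse far above the rest in young Ythdf2 CKO and in aged Ythdf2 CTL mice, and Wfdc18 had a group mean of at most 4.38 CPM.

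Among 37 listed genes of dynein arm assembly and intraflagellar transport, the processes in which Lrrc56 acts, 29 had rows and 0 were called at either age (28 tested in young and 29 in aged mice). The median log2 fold change was -0.0669 in young mice and -0.0132 in aged mice. Ruvbl2 and Ruvbl1, ATPases of many chaperone complexes, and Pih1d1, an adaptor of these complexes, were the most abundant. Ruvbl2 was at 272 and 229 CPM in young Ythdf2 CTL and Ythdf2 CKO mice and at 240 and 328 CPM in aged mice (adjusted p = 0.841 and 0.445, edgeR quasi-likelihood test). None of the genes tested in these 3 lists was called, beside the 0.0434% lower and 0.13% higher of all genes in young mice and 0% in aged mice.

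The genes whose log2 CPM followed that of a member most closely over the 17 mice were listed without a test. For Fbp1 these were Sipa1l3 (r = 0.85), a Rap GTPase activator, Limd2 (r = 0.84), a LIM domain protein, and Atp13a3 (r = 0.82), a polyamine transporter, among 12351 genes. For Wfdc2 they were Arhgef15 (r = 0.82), a guanine nucleotide exchange factor, Spint2 (r = 0.80), a membrane inhibitor of serine proteases, and Camk1d (r = 0.80), a calmodulin-dependent kinase. For Lrrc56 they were Fhl2 (r = 0.82), Setd6 (r = 0.72) and Omd (r = 0.67), of which Fhl2 and Omd had group means of at most 1.80 CPM. The points share the genotype and age groups and, within a mouse, their libraries. These genes were picked for following a member over these mice, so their group levels are a description without a test.

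In Sipa1l3 and Limd2, mouse 121 had the highest level of all aged mice (16.3 and 615 CPM), as it stood high in Fbp1. Atp13a3 differed in this. It was at 38.7, 37.6, 28.4 and 22.9 CPM in young Ythdf2 CTL mice and at 16.8, 23.6, 14.2 and 10.7 CPM in young Ythdf2 CKO mice. In aged mice it was at 22.1, 21.5, 28.1 and 24.9 CPM in Ythdf2 CTL 65, 99, 114 and 124 and at 3.59, 9.44, 5.06, 12.2 and 2.87 CPM in Ythdf2 CKO 78, 81, 94, 121 and 122. The young groups overlapped. The aged groups did not, as for 1.7% of the 11961 genes tested in aged mice in this direction. Mouse 121 was the highest of its group. Arhgef15, likened to Wfdc2, was at 2.20 to 17.4 CPM in aged Ythdf2 CTL mice and at 0.43 to 3.82 CPM in aged Ythdf2 CKO mice.

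The genes around the members were measured as well. Within 100 kb by RefSeq spans (GRCm38.p6), 1 of 9 neighbors of Fbp1, 3 of 18 of Wfdc2 and 9 of 19 of Lrrc56 had rows, and 0 of the tested ones were called at either age, beside 0.0434% lower and 0.13% higher in young mice and 0% in aged mice over all genes. Gm5141, near Fbp1, was at 26.9 CPM in young Ythdf2 CTL and 35.3 CPM in young Ythdf2 CKO mice (adjusted p = 0.894, edgeR quasi-likelihood test). Sys1, Dbndd2 and Pigt, near Wfdc2, had young log2 fold changes of 0.14, -0.34 and 0.24, and aged ones of -0.03, 0.0017 and 0.43. Around Lrrc56, 5 of 8 tested neighbors were below 0 in young and 2 of 9 in aged mice. The largest young difference among them was that of Irf7, an interferon regulatory factor, at 48.7 and 112.5 CPM in young Ythdf2 CTL and Ythdf2 CKO mice (log2 fold change 1.21, adjusted p = 0.123, edgeR quasi-likelihood test) and at 50.0 and 74.7 CPM in aged mice (adjusted p = 0.573). Rnh1 was at 214 and 207 CPM and Rassf7 at 31.7 and 24.9 CPM in young Ythdf2 CTL and Ythdf2 CKO mice. Lmntd2 overlaps the end of Lrrc56 by 66 bases, and Gm38679, an annotated lncRNA without a row, lies within the span of Fbp1. Since the use of strand in the authors' counting was not given in the sources used here, reads from the overlap of Lrrc56 and Lmntd2 could fall to either gene. Lmntd2 had group means of 0.465 and 1.27 CPM in young and 3.86 and 1.83 CPM in aged Ythdf2 CTL and Ythdf2 CKO mice. This is the opposite order to Lrrc56 at both ages, but the Lmntd2 values of the genotypes overlapped at each age. Lmntd2 was too low to be tested in young mice and was not called in aged mice (adjusted p = 0.715, edgeR quasi-likelihood test).

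Markers of the sorted cells and of other cell types were measured beside the members. The 12 HSC markers summed to 1552 to 1955 CPM in young Ythdf2 CTL and 2004 to 2543 CPM in young Ythdf2 CKO mice, and to 1663 to 2392 and 2010 to 2809 CPM in aged mice. By the test, 6 of them were above and 6 below 0 in young mice, and their median (log2 fold change) was 0.00653. Of these, Ly6a, which encodes the Sca-1 antigen used in the sort, made the largest difference to the sum and was called as higher in young Ythdf2 CKO mice (280 against 643 CPM, adjusted p = 0.0201, edgeR quasi-likelihood test). The 7 megakaryocyte and platelet genes summed to 551 to 897 CPM in young Ythdf2 CTL and 1029 to 3168 CPM in young Ythdf2 CKO mice. In aged mice they summed to 404 to 627 CPM in Ythdf2 CTL, to 1762 to 2142 CPM in 4 Ythdf2 CKO mice and to 590.5 CPM in Ythdf2 CKO 121. Pf4, platelet factor, was the only one of them called (440 against 1529 CPM in young mice, adjusted p = 0.0488), and it made up most of the sum in young mice. Gp9 (84.5 against 61.7 CPM) and Gp1ba (27.4 against 23.1 CPM), platelet surface glycoproteins, had the other order in young mice, and 5 of the 7 genes were above 0 in young and 7 of 7 in aged mice. Of 6 epithelial markers, 4 had rows here. Epcam, an epithelial adhesion molecule, had the order of Wfdc2 in its means. It was at 7.26, 6.50, 5.66 and 5.33 CPM in young Ythdf2 CTL mice 1 to 4 and at 0.989, 3.47, 0 and 3.15 CPM in young Ythdf2 CKO mice, without overlap (as in 2.09% of genes tested, in this direction). In aged mice it was at 5.59 to 18.6 CPM in Ythdf2 CTL and 0.584 to 15.1 CPM in Ythdf2 CKO mice, which overlapped through mouse 78. It was called at neither age (log2 fold change -1.67 and -1.06, adjusted p = 0.708 and 0.713, edgeR quasi-likelihood test). Cldn7, a claudin, went from 5.66 to 3.27 CPM in the young and from 2.37 to 1.94 CPM in the aged means. Of the epithelial genes tested, 2 of 3 were below 0 in young and 3 of 4 in aged mice, and 0 were called. Their sum was 106 to 144 CPM in young Ythdf2 CTL and 121 to 136 CPM in young Ythdf2 CKO mice, most of it Krt18, which had the other order. The hepatocyte list, relevant as Fbp1 is a liver enzyme, had 1 of 4 genes in the table (Apoa1), at 0.194 to 3.54 CPM. The megakaryocyte sum did not overlap between young genotypes and was within the Ythdf2 CTL range in mouse 121. The neutrophil genes summed to 181 to 264 CPM in young Ythdf2 CTL and 262 to 359 CPM in young Ythdf2 CKO mice, and the mast cell and basophil genes to 140.5 to 198 and 107 to 148 CPM. In aged mice these sums were 187 to 542 and 318 to 520.5 CPM, and 52.5 to 195 and 60.3 to 162 CPM. Both sums overlapped between genotypes at both ages. In the lists of neutrophil, mast cell, progenitor, B cell, T cell, monocyte and erythroid markers, 0 genes were called at either age, beside the 0.0434% lower and 0.13% higher in young mice and 0% in aged mice over all genes. The part of these cell types in the levels of the members was not tested. In libraries of pooled cells, fewer cells that express a gene and less RNA per cell cannot be told apart.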

How the data were processed

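The study aligned reads to GRCm38 with HISAT2 and assigned them to genes with Rsubread, and the authors deposited the raw counts of each library, not normalized. The annotation, the use of strand and the handling of reads that match several genes were not given in the sources used here. Of 13108 row names, 12886 matched a RefSeq symbol and 20 had become dates. Groups came from the sample labels. Libraries A and B were summed, and the mouse, a separate animal per the labels, was the replicate. Young and aged mice were fitted apart in R 4.3.3 with edgeR 4.0.16 (filterByExpr, minimum count 10 and total 15, TMM scaling, quasi-likelihood test, Benjamini-Hochberg adjustment over all genes tested, threshold 0.05). SE was taken as the size of the log2 fold change over the root of its F. DESeq2 1.42.0 was an alternative. Exact permutation tests of mean CPM used scipy 1.17.1. Sequences and exon lengths are from GENCODE M21 (GRCm38).

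The members, gene lists and tests were chosen with earlier results of these data known. Besides the members and Ythdf2, the rule named the 3 genes most correlated with each member (log2 CPM, prior count 2), neighbors within 100 kb (of which only some are named), and called genes of each pathway list or its 3 most abundant ones. The subset of mice with at most 3 Y-linked counts was chosen after seeing the data.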

Additional observations from a re-analysis of the deposited data

Results flagged for a closer look

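Fbp1 in aged Ythdf2 CKO 121 was at 98.54 CPM, far from the other 4 mice of its group, of which the next was at 9.671 CPM. Ythdf2 in the same mouse was at 188.0 CPM, and the next mouse of its group was at 87.73 CPM. Of 15 groups of 4 or 5 mice that were examined in this way for the 3 members and Ythdf2, 2 held such a mouse, and chance alone gives about 1 in 20, or 0.75. Aged Ythdf2 CTL 99 B, which was left out of all comparisons, held 9 counts of Lrrc56 among its 187034 counts, while library A of that mouse held 1. When it was kept, the aged log2 fold change of Lrrc56 went from 2.21 to 1.09 (edgeR quasi-likelihood test, adjusted p = 0.81).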

How the results depend on the processing

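In aged mice the sign held in all 24 alternatives for Fbp1 (-3.06 to -0.66, adjusted p 0.00231 to 0.846) and Wfdc2 (-2.31 to -1.80, adjusted p 0.0141 to 0.653). Lrrc56 was at 1.09 to 3.58 (adjusted p 0.355 to 0.81) in the 17 that could be fitted, but it passed the filter through the Ythdf2 CKO mice in which it was high, so its sign in them says nothing about stability. It was too low to be tested over libraries, with library A or B alone, and without Ythdf2 CKO 78, 81 or 94. Leaving out 1 aged mouse gave -2.95 (without Ythdf2 CKO 121, now called) to -0.90 for Fbp1, and leaving out 121 and 124 gave -3.06. Wfdc2 was called by DESeq2 (-2.07) and by the likelihood ratio test over libraries (-2.01) and over mice (-2.055). The cause was not tested.

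Genes called higher and lower in aged mice were 54 and 50 by DESeq2, and 42 and 34 by the likelihood ratio test over mice. Over libraries they were 136 and 284 by that test, and 15 and 25 with the library letter as a replicate block. They were 3 and 2 with all 17 mice in 1 fit, and 25 and 15 without 121 and 124. Without 1 mouse they were 0 to 12 and 0 to 4, the highest both without Ythdf2 CKO 121. In young mice they were 58 and 19 by DESeq2, 66 and 24 by the likelihood ratio test over libraries, 8 and 1 with a Y-linked covariate, and 0 to 14 and 0 to 4 without 1 mouse, with 0 in each direction without Ythdf2 CTL 1 or 2. With the mouse number as a replicate block, 12 were higher and 2 lower. Young mice share numbers only: same-numbered deviations correlated at 0.039, -0.0436, 0.0489 and 0.00369. With the library letter as a block, Fbp1 was at -1.11 and Wfdc2 at -2.01 (adjusted p = 0.421 and 0.092, edgeR). Both fits over libraries count A and B of a mouse as separate replicates although they share an animal.

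As descriptions, the young log2 ratio was -1.81 for Fbp1, -2.22 for Wfdc2 and -2.62 for Lrrc56 (scaled over young mice only). For Lrrc56, 0 was set to 3 counts per mouse. With library B alone the ratio was -2.36 for Fbp1. The value for Lrrc56 was -1.58 with library A and -1.51 with library B, where 3 counts weigh more. Lrrc56 had at most 59 counts in a mouse, and the part of depth in this was not tested.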
